A study of Homo sapiens with 6 samples.

Results

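The genes described here are 9 transcription factors and partners of the endothelial-to-hematopoietic transition: RUNX1, RUNX2 and RUNX3, their partner CBFB, the corepressor RUNX1T1, the repressors GFI1 and GFI1B, and the activators MYB and SPI1. They were taken by symbol from a table of raw counts for 29436 gene symbols, and all 9 symbols were found. Hemogenic endothelial cells were derived on AGM-S3 stroma from the human embryonic stem cell line H1 and sorted on day 8 as positive for CD34, for KDR and for CD144 but negative for CD43. In 3 of the 6 libraries the inducing medium held alpha lipoic acid, an antioxidant and enzyme cofactor, at 100 µg/ml, and in the other 3 it held none. Each library was amplified from 1000 cells, and the labels do not say whether the libraries of a group came from separate cultures, so p values measure the spread between libraries only.

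Hemogenic endothelium is the endothelium from which blood cells bud. RUNX1 binds DNA as a dimer with the CBFB protein and is required for that step, and in mouse embryos its targets GFI1 and GFI1B recruit the demethylase LSD1 to silence endothelial genes. MYB is needed for definitive blood progenitors, and SPI1 encodes PU.1, a factor of myeloid and lymphoid cells. RUNX2 is best known from bone, RUNX3 from T cells and sensory neurons, and RUNX1T1 as a corepressor that leukemic translocations fuse to RUNX1.

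The starts of these genes are printed here because 6 members, among them RUNX1, GFI1, GFI1B and MYB, have windows in a RefSeq promoter table (GRCh38.p14), each running from 250 bases before a start to 50 after it. Capitals mark matches on either strand to RUNX letters (TGTGGT or TGCGGT) or GATA letters (AGATAA or TGATAA). The first 4 windows belong to genes whose level differed between the groups. For GFI1 and GFI1B, which have further windows, the window printed is the one that holds a match. The last is, among the member windows used, the one with the most RUNX letters.
RUNX1 (chr21:34888650-34888949, minus strand): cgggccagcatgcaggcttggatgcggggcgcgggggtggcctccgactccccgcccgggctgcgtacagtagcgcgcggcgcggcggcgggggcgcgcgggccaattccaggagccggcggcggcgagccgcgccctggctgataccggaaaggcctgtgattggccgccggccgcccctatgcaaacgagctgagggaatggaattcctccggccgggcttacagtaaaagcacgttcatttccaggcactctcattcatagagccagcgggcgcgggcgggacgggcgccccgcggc
GFI1 (chr1:92486050-92486349, minus strand): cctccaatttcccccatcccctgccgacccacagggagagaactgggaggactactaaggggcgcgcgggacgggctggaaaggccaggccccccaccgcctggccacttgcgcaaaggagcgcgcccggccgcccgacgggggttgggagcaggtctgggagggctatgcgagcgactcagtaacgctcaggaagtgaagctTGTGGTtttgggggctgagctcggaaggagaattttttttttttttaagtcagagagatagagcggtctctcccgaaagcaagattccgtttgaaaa
GFI1B (chr9:132978444-132978743, plus strand): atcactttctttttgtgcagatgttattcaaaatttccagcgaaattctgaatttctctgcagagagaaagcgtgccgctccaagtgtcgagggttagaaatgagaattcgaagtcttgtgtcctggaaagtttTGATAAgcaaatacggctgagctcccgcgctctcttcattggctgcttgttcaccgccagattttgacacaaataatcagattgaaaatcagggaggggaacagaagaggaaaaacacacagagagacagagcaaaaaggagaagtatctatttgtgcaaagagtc
MYB (chr6:135181058-135181357, plus strand): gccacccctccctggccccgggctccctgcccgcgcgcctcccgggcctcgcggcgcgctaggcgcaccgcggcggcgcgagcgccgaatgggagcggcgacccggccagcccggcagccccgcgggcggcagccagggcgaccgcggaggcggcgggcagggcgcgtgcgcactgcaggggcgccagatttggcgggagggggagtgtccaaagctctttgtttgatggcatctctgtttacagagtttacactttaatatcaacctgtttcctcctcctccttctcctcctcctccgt
RUNX2 (chr6:45328080-45328379, plus strand): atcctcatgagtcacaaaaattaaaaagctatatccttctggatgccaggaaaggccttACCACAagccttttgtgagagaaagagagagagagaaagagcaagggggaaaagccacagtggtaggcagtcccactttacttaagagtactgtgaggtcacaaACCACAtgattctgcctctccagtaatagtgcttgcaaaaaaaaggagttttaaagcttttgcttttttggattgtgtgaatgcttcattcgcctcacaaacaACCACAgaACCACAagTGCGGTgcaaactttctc
The RUNX1 and MYB windows held no match to either set of letters. The printed GFI1 window held 1 RUNX match, which began at position -47 from the start, and the printed GFI1B window held 1 GATA match at -116. The printed RUNX2 window held 5 RUNX matches and a window of RUNX3 (chr1:24964961-24965260) held 2. The other windows of GFI1, GFI1B, RUNX2 and RUNX3 held neither RUNX nor GATA letters. Over the 11 windows of the 6 genes, 3 held RUNX letters and 1 held GATA letters, against 19.6% and 16.3% of 35116 promoter windows of that length. A further search for the antioxidant response letters TGACNNNGC found them in 3 of the 11 windows, against 13.3% of all windows. These matches describe letters only, and the counts below are per gene and do not tell its starts apart.

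Total counts ran from 31404734 to 41351951 in lipoic acid libraries and from 30041494 to 32034433 in untreated libraries. Nearly every count was an even number in the 3 lipoic acid libraries (99.13% to 99.34%) and in untreated replicate 1 (99.21%), but untreated replicates 2 and 3 had 52.01% and 51.97% of even values. Counting limits were therefore computed with the even counts halved, and they cover counting error alone. The share of counts from mitochondrially encoded genes was 4.39% to 5.02% with lipoic acid and 2.45% to 2.82% without it. With those genes removed before scaling, the members called were again 4 higher and 2 lower. The sorted surface markers were present: CD34, KDR and CDH5 (which encodes CD144) together reached 6040 to 6306 CPM in lipoic acid and 6370 to 6534 CPM in untreated libraries, and SPN (CD43) had no count. KDR makes up most of that sum and was higher with lipoic acid (4813 ± 134 CPM, against 4115 ± 230 CPM without it). CD34 fell 1.78-fold, to 813 ± 10.3 CPM with lipoic acid, against 1451 ± 40.9 CPM without it (SD, n = 3 each), and CDH5 fell 1.56-fold, to 556 ± 18.3 CPM, against 864 ± 127 CPM without it (adjusted p at most 0.000344 for both, edgeR). The part of these differences in the results that follow was not tested. In bulk libraries, fewer cells expressing a gene and less of its RNA per cell cannot be told apart, here and in all values that follow.

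Among the 9 genes RUNX1, GFI1, GFI1B and CBFB were higher with lipoic acid, MYB and RUNX1T1 were lower, RUNX2 and RUNX3 did not pass, and SPI1 had no count. A gene was called at a Benjamini-Hochberg adjusted p under 0.05 from edgeR's quasi-likelihood test over all 13780 tested genes. CPM here are counts in millionths of the scaled library total. The 4 rises and 2 falls among 8 tested members stand beside 24.2% of all tested genes called higher, 23.3% called lower and 47.4% called either way. RUNX1, GFI1 and GFI1B rose at least 2-fold, as did 7.92% of tested genes, and MYB and RUNX1T1 fell at least 2-fold, as did 5.93%. For 6 of the 8 tested members the groups did not overlap, which held for 59.1% of all tested genes, with the lipoic acid libraries above in 30.4% and below in 28.8%. Without lipoic acid replicate 2 or 3 the rises numbered 2, and in the 4 libraries of even counts alone they again numbered 4, with 2 falls in each case.

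**Figure D1:**
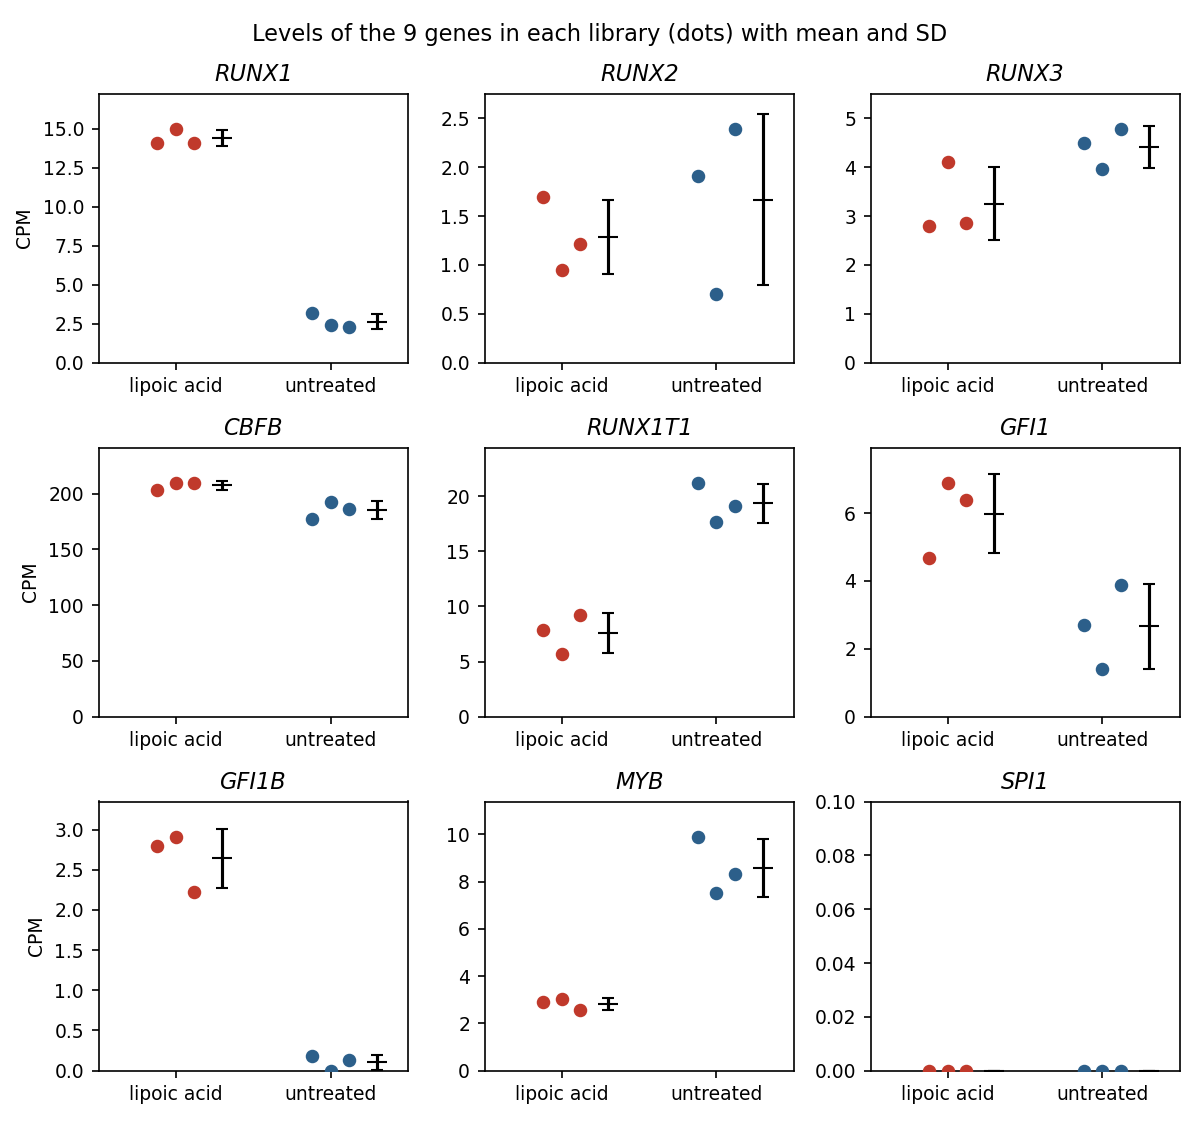
Level of each of the 9 genes in CPM (linear axes from 0) in the 3 lipoic acid libraries (red) and the 3 untreated libraries (blue), with mean and SD in black. The groups do not overlap for RUNX1, CBFB, RUNX1T1, GFI1, GFI1B and MYB, and they overlap for RUNX2 and RUNX3.

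RUNX1 (ENSG00000159216.18, chromosome 21, 34787801 to 36004667, minus strand, GRCh38) had 14.1, 15.0 and 14.1 CPM in lipoic acid replicates 1 to 3, against 3.20, 2.43 and 2.26 CPM in untreated replicates 1 to 3. The lipoic acid libraries lay close together and every value was above the highest untreated value. The means were 14.4 ± 0.531 and 2.63 ± 0.501 CPM (SD, n = 3 each), the fitted difference was 2.45 on the log2 scale with a standard error of 0.176, and edgeR gave an adjusted p of 5.72e-06. Of all tested genes, 450 (3.27%) were called higher by at least as much. With even counts halved, RUNX1 had 811 counts over the lipoic acid libraries and 193 over the untreated libraries, a ratio of 5.73 with a 95% counting interval of 4.89 to 6.74. An exact two-sided permutation test of any gene in this design cannot go below p = 0.1, and RUNX1 reached that value.

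The other DNA-binding RUNX factors did not pass. RUNX3 (chromosome 1, 24899511 to 24965121, minus strand) had 2.79, 4.11 and 2.85 CPM with lipoic acid, against 4.49, 3.96 and 4.79 CPM without it. Lipoic acid replicate 2 lay above the lowest untreated library, so the groups overlapped. The fitted log2 difference of RUNX3 was -0.44 with a 95% interval of -0.97 to 0.08 (adjusted p = 0.146, edgeR), although limma voom with quality weights called RUNX3 lower (-0.62, adjusted p = 0.0157). RUNX2 (chromosome 6, 45328157 to 45664349, plus strand) had 1.69, 0.950 and 1.21 CPM with lipoic acid, against 1.91, 0.698 and 2.39 CPM without it. The untreated libraries spanned the lipoic acid range, and the log2 difference of -0.37 had a wide interval, -1.41 to 0.67 (adjusted p = 0.538, edgeR).

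The make-up of the RUNX family therefore differed between the groups. Per kilobase of annotated exon, RUNX1 made up 52.4%, 48.4% and 53.7% of the summed RUNX1, RUNX2 and RUNX3 level in lipoic acid replicates 1 to 3, against 14.4%, 14.0% and 9.70% in untreated replicates 1 to 3. RUNX3 was the most abundant RUNX transcript per length in all 3 untreated libraries, at 0.993, 0.875 and 1.06 CPM per kb. In lipoic acid libraries RUNX3 stood at 0.617, 0.910 and 0.631 CPM per kb and RUNX1 at 0.905, 0.963 and 0.903, so that RUNX1 was the higher of both in each. The summed RUNX level was 1.73, 1.99 and 1.68 CPM per kb with lipoic acid, against 1.43, 1.12 and 1.50 without it. RUNX1 carries 15574 bases of exon in GENCODE but 7274 in its longest transcript, and by longest transcripts its share was 65.0% to 69.2% with lipoic acid, against 17.1% to 24.5% in untreated libraries.

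**Figure D2:**
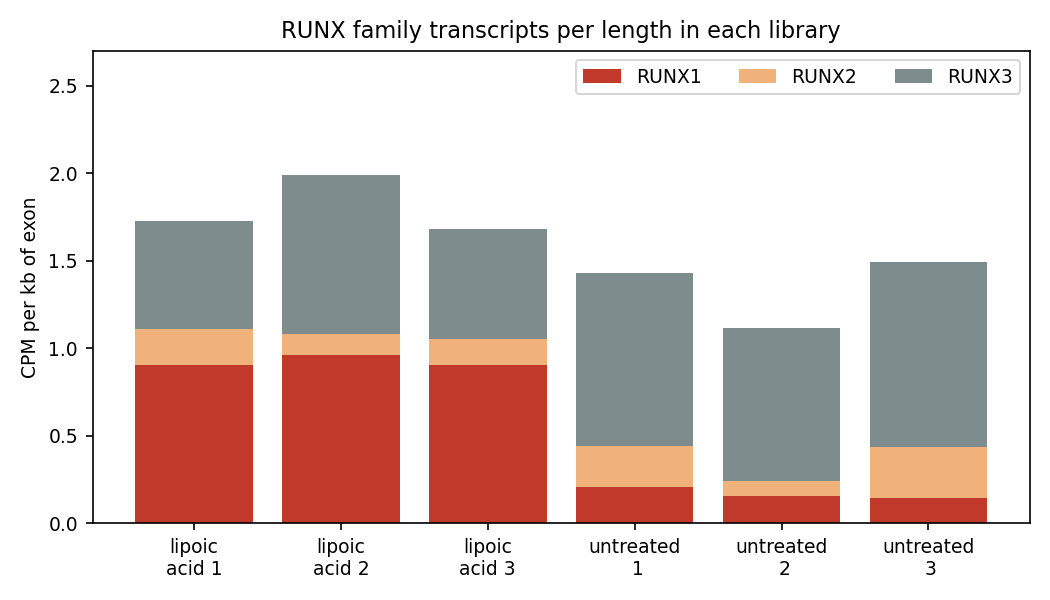
Stacked bars give RUNX1 (red), RUNX2 (orange) and RUNX3 (grey) in CPM per kilobase of annotated exon for each lipoic acid library (left 3) and each untreated library (right 3). The RUNX1 part is 0.903 to 0.963 in lipoic acid and 0.145 to 0.205 in untreated libraries, while the RUNX3 part is 0.617 to 0.910 in lipoic acid and 0.875 to 1.06 in untreated libraries.

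CBFB (chromosome 16, 67029116 to 67101058, plus strand), whose protein binds no DNA itself and stabilizes RUNX proteins on it, was far more abundant. It had 203, 209 and 210 CPM with lipoic acid, against 177, 193 and 186 CPM without it. The groups did not overlap but the gap was small, and the log2 difference was 0.16 with a standard error of 0.0563 (adjusted p = 0.0367, edgeR). CBFB was not called after correction for GC content and length (0.04, adjusted p = 0.673), nor without any 1 of lipoic acid replicates 1 to 3 or untreated replicates 1 and 3 (adjusted p 0.0625 to 0.102, edgeR). Per length, CBFB exceeded the summed RUNX level 25.5 to 30.2 times in lipoic acid libraries and 29.9 to 41.9 times in untreated libraries.

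The corepressor gene RUNX1T1 (chromosome 8, 91954967 to 92103286, minus strand) moved the other way from RUNX1. It had 7.87, 5.70 and 9.23 CPM with lipoic acid, against 21.2, 17.7 and 19.2 CPM without it. The highest lipoic acid library lay below the lowest untreated library. The log2 difference was -1.34 with a standard error of 0.173, a 2.54-fold fall (adjusted p = 0.000206, edgeR).

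Both GFI1 genes were higher with lipoic acid, and GFI1B had hardly any counts without it. GFI1 (chromosome 1, 92474762 to 92486876, minus strand), a zinc finger repressor, had 4.68, 6.90 and 6.38 CPM with lipoic acid, against 2.71, 1.40 and 3.89 CPM without it. The spread within each group was wide, and lipoic acid replicate 1 lay only a little above untreated replicate 3. The rise was 2.24-fold (log2 1.17, standard error 0.335, adjusted p = 0.0163, edgeR). The call, but not the direction, was lost without lipoic acid replicate 2 (2.09-fold, adjusted p = 0.0575, edgeR) or 3 (2.18-fold, adjusted p = 0.0549, edgeR).

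GFI1B (chromosome 9, 132944000 to 132991687, plus strand), its paralog in erythroid and megakaryocytic cells, had 2.79, 2.91 and 2.22 CPM with lipoic acid, against 0.185, 0 and 0.133 CPM without it. With even counts halved these were 148 counts over the lipoic acid group and 7 over the untreated group, a ratio of 28.8 with a 95% counting interval of 13.7 to 73.0. The fitted log2 difference was 4.58 with a standard error of 0.629 (adjusted p = 0.000302, edgeR). GFI1B entered the test only through the lipoic acid group, because its untreated counts were too low for the filter. The fitted fold of 23.8 became 38.0 without untreated replicate 1 and 14.1 in the 4 libraries of even counts, and the call held in both. Of its exon length 5.7% is shared with TSC1 on the other strand, and the strand setting of the counts was not given.

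MYB (chromosome 6, 135181315 to 135219173, plus strand) fell. It had 2.89, 3.04 and 2.56 CPM with lipoic acid, against 9.91, 7.52 and 8.31 CPM without it. The lipoic acid libraries lay close together and all were far below the untreated ones. The means were 2.83 ± 0.244 and 8.58 ± 1.22 CPM (SD, n = 3 each), and the log2 difference was -1.60 with a standard error of 0.192 (adjusted p = 0.000136, edgeR). A fall of at least that size was called for 478 tested genes (3.47%).

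SPI1 (chromosome 11, 47354860 to 47378576, minus strand) had no count in any of the 6 libraries. That allows up to 0.0532 CPM over the lipoic acid libraries and up to 0.0390 CPM over the untreated libraries. SPI1 therefore gave no comparison at this depth.

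**Figure D3:**
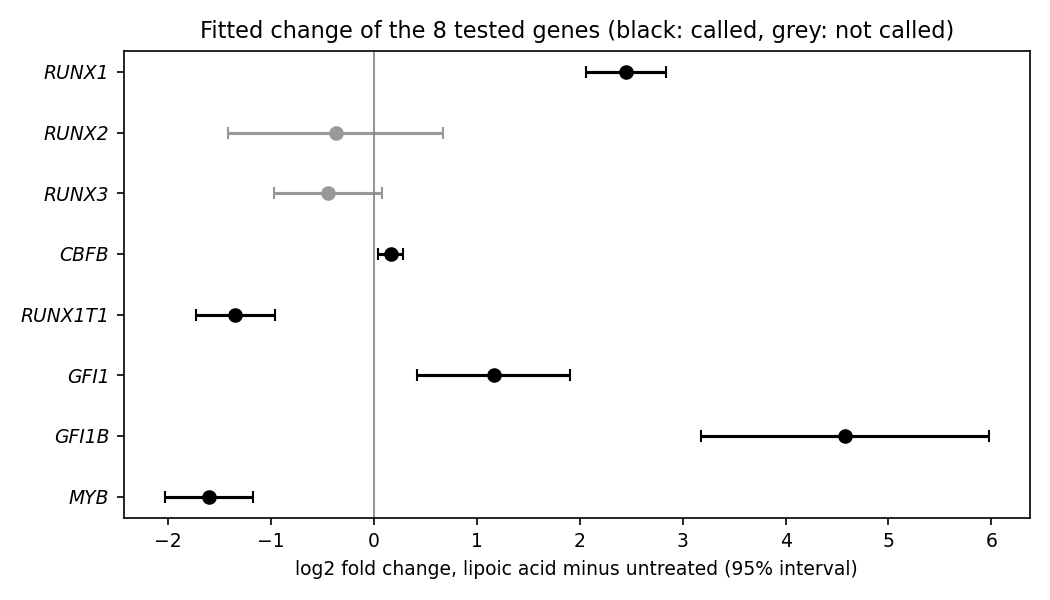
Points give the fitted log2 fold change, lipoic acid minus untreated, of the 8 tested genes, with 95% intervals as bars; black marks called genes and grey the others. RUNX1 (2.45), GFI1 (1.17), GFI1B (4.58) and CBFB (0.16) lie right of 0, MYB (-1.60) and RUNX1T1 (-1.34) left of it, and the intervals of RUNX2 and RUNX3 cross it.

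The order of the levels also differed. Per kilobase of exon, lipoic acid libraries had, below CBFB at 50.2, GFI1 at 1.81 ± 0.351, RUNX1 at 0.924 ± 0.0341 and RUNX3 at 0.719 ± 0.165 CPM per kb, then RUNX1T1, MYB, GFI1B and RUNX2 at 0.562, 0.515, 0.433 and 0.157. From RUNX1 down to GFI1B each gene's libraries overlapped those of the next, so only CBFB, GFI1, RUNX2 and SPI1 stood apart from their neighbours. In untreated libraries the order below CBFB, at 44.9, was MYB at 1.56 ± 0.222, RUNX1T1 at 1.43 ± 0.131 and RUNX3 at 0.976 ± 0.0930 CPM per kb, followed by GFI1 at 0.807, RUNX2 at 0.203, RUNX1 at 0.169 and GFI1B at 0.0173. There MYB overlapped RUNX1T1, RUNX3 overlapped GFI1, RUNX2 overlapped RUNX1, and GFI1B, with no count in untreated replicate 2, overlapped SPI1. The order depends on the length used. By longest transcripts, lipoic acid libraries had GFI1 at 2.10, RUNX1 at 1.98, RUNX1T1 at 0.989, GFI1B at 0.874, MYB at 0.771 and RUNX3 at 0.749 CPM per kb, so that RUNX3 stood below 3 genes it had stood above. Untreated libraries then had RUNX1T1 at 2.52 above MYB at 2.34, and RUNX1 at 0.361 above RUNX2 at 0.284 CPM per kb.

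Genes that act with or around the 9 were taken from 8 lists, which were drawn up with earlier results of these data known. They are described by counts and medians beside the 24.2% higher and 23.3% lower of all tested genes, whose median log2 difference was -0.0081. Every adjusted p in the following paragraphs is from edgeR.

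Cofactors and corepressors of RUNX1 mostly did not pass: 3 of 13 rose and 0 fell, with a median log2 difference of 0.05. The risers were HIPK2, a kinase, NCOR1, a nuclear receptor corepressor, and KAT6A, an acetyltransferase. HIPK2 averaged 155 ± 6.60 CPM with lipoic acid and 107 ± 7.23 CPM without it (SD, n = 3 each; adjusted p = 0.000190, edgeR). NCOR1 rose 1.25-fold (adjusted p = 0.00802) and KAT6A 1.29-fold (adjusted p = 0.0410). NCOR1 and KAT6A lost their calls after correction for GC content and length, and KAT6A also without any 1 of lipoic acid replicates 1 to 3 or untreated replicate 2. CBFA2T3, a relative of RUNX1T1, stood at 0.334 CPM with lipoic acid and 0.370 CPM without it and did not pass. The LSD1 complex through which GFI1 proteins repress had 5 rises and 0 falls among 13, with a median of 0.08. GSE1 rose 1.53-fold, ZMYM2 1.43-fold and ZMYM3 1.30-fold (adjusted p 7.3e-05 to 0.0114). KDM1A, which encodes LSD1 itself, rose to 123 ± 6.45 CPM with lipoic acid, against 105 ± 2.27 CPM without it (adjusted p = 0.0115).

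MYB relatives and coactivators split, with 2 of 7 higher, 2 lower and a median near 0. MYBL2, a cell cycle paralog of MYB, rose to 25.0 ± 2.12 CPM with lipoic acid, against 20.2 ± 1.77 CPM without it (adjusted p = 0.0344). MYBL1, another paralog, had 0.629 CPM with lipoic acid and 0.0931 CPM without it. MYBL1 entered the test only through the lipoic acid libraries, where it is high, so its call had to fall on that side. CREBBP, the acetyltransferase CBP, fell 1.27-fold and MEN1, which encodes menin, fell 1.31-fold. Both MYB paralogs lost their calls without lipoic acid replicate 1 or 2, without untreated replicate 3 and in the 4 libraries of even counts. Of 8 relatives and partners of PU.1 only JUN and CEBPB were abundant enough to test: JUN rose 1.54-fold to 39.8 ± 2.33 CPM with lipoic acid, against 25.8 ± 3.05 CPM without it (adjusted p = 0.000674), and CEBPB did not pass. SPIB, SPIC and IRF4 had no count in any library, as SPI1 had none.

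Factors known to act on RUNX1 expression mostly fell: 7 of 13 fell, 1 rose and 5 did not pass, with a median of -0.24. SOX17, which represses RUNX1 in hemogenic endothelium of the mouse, had 18.0, 14.8 and 17.6 CPM with lipoic acid, against 38.9, 37.5 and 40.5 CPM without it. HEY2 and HEY1, Notch target repressors, fell 2.30-fold and 1.58-fold, and LMO2, a partner of TAL1, fell 1.43-fold. The highest adjusted p of these 4 was 0.000169. The 1 rise was that of ETS1 (1.20-fold, adjusted p = 0.0368), whose groups overlapped. The list had 0 rises without lipoic acid replicate 1, 2 or 3, without untreated replicate 1 or 3, and after correction for GC content and length. TAL1, FLI1, GATA2 and LDB1 did not pass, with log2 differences of 0.07, -0.04, -0.24 and 0.06.

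Endothelial genes that are lost as blood cells emerge did not move as a block: 6 of 14 fell, 3 rose and 5 did not pass, with a median of -0.14. CLDN5, a tight junction claudin, had 1.79, 2.34 and 2.42 CPM with lipoic acid, against 10.6, 12.2 and 8.64 CPM without it (adjusted p = 3.0e-05). SOX18 fell 2.17-fold, ESAM 1.60-fold and PECAM1, which encodes CD31, 1.27-fold. The 3 rises were those of KDR and TEK, receptors of endothelial growth factors, and SOX7, and 39.4% of the exons of SOX7 are shared with PINX1 on its strand.

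Many blood genes gained at the transition were low or absent in both groups, but CD44, LAPTM5, RAC2 and KIT were not. Of 17 listed, 11 were tested, 2 rose and 3 fell, with a median of 0.13. KIT, the stem cell factor receptor, had 62.8, 67.1 and 68.6 CPM with lipoic acid, against 37.0, 28.8 and 34.8 CPM without it (1.97-fold, adjusted p = 3.7e-05). CD44 fell 1.29-fold (1001 CPM with lipoic acid and 1286 CPM without it) and RAC2 1.40-fold (54.7 and 76.5 CPM). The third fall was that of LAPTM5, 1.19-fold (243.7 and 289.5 CPM). CSF3R, the granulocyte colony-stimulating factor receptor, was at 0.921 CPM with lipoic acid and 0.0443 CPM without it. With even counts halved these were 53 and 4 counts, a ratio of 18.1 with a 95% counting interval of 6.66 to 68.7. Listed genes too low to test went both ways. CSF2RA had 0 counts with lipoic acid and 11 without it, halved in the same way. GATA1 had 12 and 0 counts and WAS 2 and 0. PTPRC (CD45), MPO and ITGAM had no count in any library.

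Described targets of RUNX1 in human megakaryocytes showed 8 rises and 2 falls among 13, with a median of 1.51. NFE2, a factor of platelet formation, had 1.49, 3.10 and 1.64 CPM with lipoic acid and no count in any untreated library, at least 53.3-fold higher against a floor of 3 counts over the untreated group. PF4, a platelet chemokine, had 3.14, 4.56 and 3.53 CPM with lipoic acid, against 0.246, 0.266 and 0.731 CPM without it (adjusted p = 0.000317), and its groups were far apart. RAB27B, a granule transport protein, rose 2.82-fold. MYL9, a myosin light chain that RUNX1 activates in platelets, fell to 18.5 ± 0.615 CPM with lipoic acid, against 36.2 ± 3.19 CPM without it (adjusted p = 3.1e-05). PCTP fell 1.67-fold. NFE2 and PF4, like CSF3R above, entered the test only through the lipoic acid libraries. The 8 rises became 5 without lipoic acid replicate 3, without untreated replicate 3, in the 4 libraries of even counts and with a filter of 1 CPM, while the number of falls stayed at 2.

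**Figure D4:**
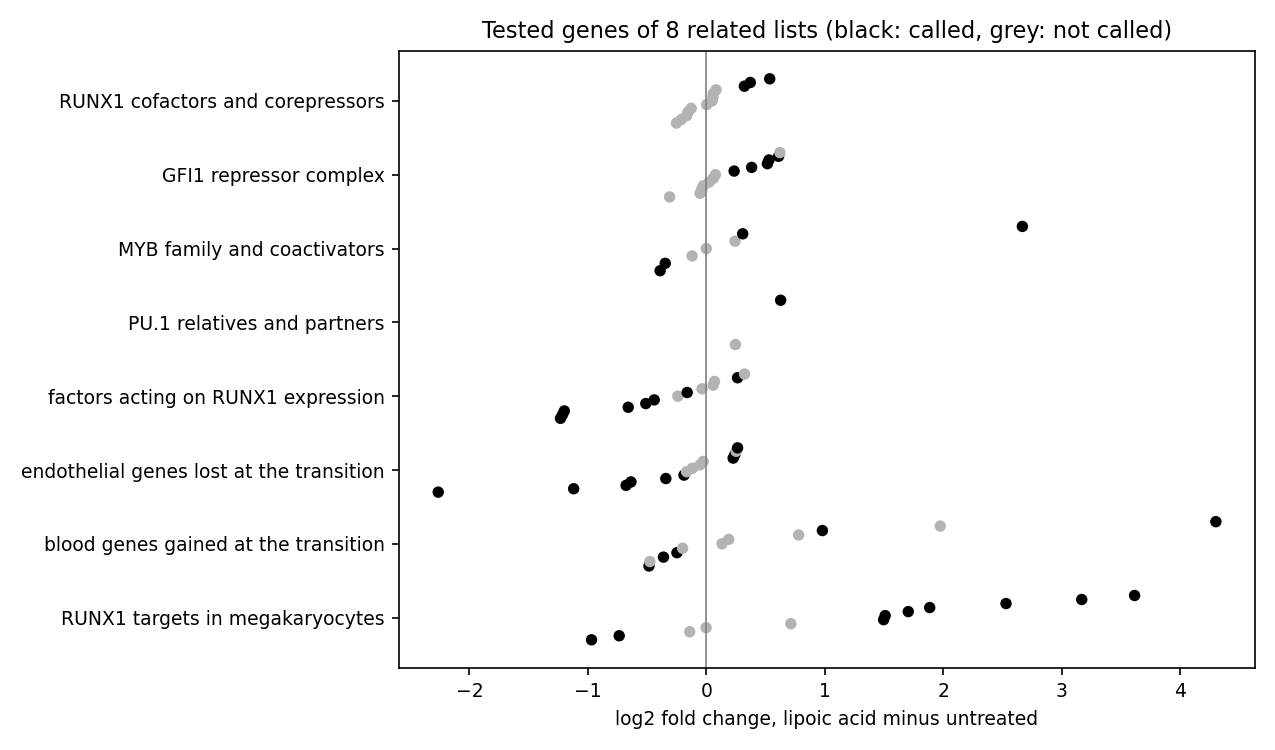
Each dot is a tested gene of 1 of 8 lists (rows), placed at its fitted log2 fold change, lipoic acid minus untreated; black dots are called and grey dots are not, and NFE2, which is at 0 in the untreated group, is left out. Cofactor and complex genes lie near 0, and the RUNX1 target row is spread widely, with MYL9 at -0.97 and PF4 at 3.17.

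Markers of other cells moved beside these genes, and their part in the differences was not tested. The summed level of 12 megakaryocyte markers was 46.2 to 57.5 CPM in lipoic acid and 16.5 to 17.2 CPM in untreated libraries, with 6 of 8 tested higher, 1 lower and PPBP, GP1BB and TUBB1 at 0 throughout. The fall was that of ITGB3, an integrin of platelets, at 0.906 CPM with lipoic acid and 2.39 CPM without it (adjusted p = 0.0240). SELP and RAB27B made up most of the summed megakaryocyte level in both groups. SELP averaged 21.3 CPM with lipoic acid and 5.26 CPM without it, and RAB27B 20.9 and 7.39 CPM. The 12 blood and myeloid markers summed to 278 to 305 CPM with lipoic acid, against 332 to 356 CPM without it, with 0 of 7 tested higher and 2 lower. Of 12 erythroid markers 2 were tested, and the 12 summed to 71.2 to 94.9 CPM with lipoic acid and 74.6 to 87.3 CPM without it. EPOR alone averaged 81.7 CPM with lipoic acid and 79.2 CPM without it, while HBE1, HBA1 and HBA2 were at 0. The 1 called erythroid marker was GYPB, of a multigene family and so uncertain in its counts. GYPB had 0.349, 0.633 and 0.580 CPM with lipoic acid and no count in any untreated library. Against a floor of 3 counts over the untreated group, GYPB was at least 13.3-fold higher. GYPB entered the test only through the lipoic acid libraries, so its call had to fall on that side. HBZ, an embryonic globin, had 14 counts over the lipoic acid libraries with even counts halved and 0 over the untreated libraries. The 12 endoderm and hepatic markers summed to 151 to 225 CPM with lipoic acid and 28.0 to 41.2 CPM without it (8 of 9 tested higher, HNF4A not called). Of the untested ones, ALB had 16 counts with lipoic acid and 1 without it, with even counts halved. AHSG had 0 and 13 counts and SERPINA1 0 and 1. Epithelial markers summed to 463 to 533 CPM with lipoic acid and 298 to 329 CPM without it (6 of 8 tested higher, 1 lower, GRHL2 at 0). Mesenchymal markers summed to 1480 to 2032 CPM with lipoic acid and 1926 to 2563 CPM without it (1 of 11 tested higher, 5 lower).

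For each called member the 3 tested genes with the most similar pattern were found as the smallest distance over the 6 libraries in log2 CPM centred on each gene's mean. Nearest to RUNX1 were KIF1A (distance 0.303, 17.1 ± 2.24 and 2.99 ± 0.379 CPM with and without lipoic acid), RFX3-AS1 (0.400) and HYOU1 (0.431, 91.2 ± 7.77 and 15.9 ± 3.35 CPM). Nearest to MYB were ZNF503-AS1 (0.175), HLA-DRB5 (0.258) and CREG2 (0.268), and nearest to RUNX1T1 were GMDS (0.256), SLC45A4 (0.267) and CASC15 (0.275). GFI1 had ZNF8 (0.403), NAP1L2 (0.410) and LINC00598 (0.419), GFI1B had IGSF1 (0.548), MPZL2 (0.577) and CXCL11 (0.653), and CBFB had NARS, OGDH and FAF2 (0.0341 to 0.0428). OGDH and LINC00598 were not called, and no member of the 9 appeared among another's nearest genes.

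**Figure D5:**
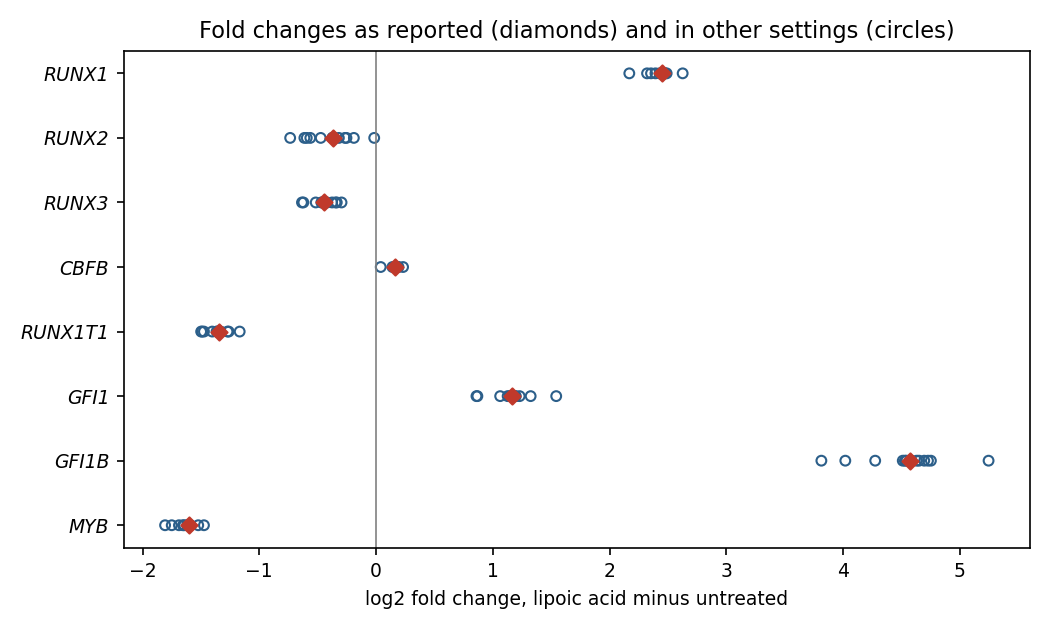
Fitted log2 fold changes, lipoic acid minus untreated, of the 8 tested genes as reported (diamonds) and under up to 20 other settings each (circles). RUNX1 stays between 2.17 and 2.63, MYB between -1.81 and -1.47 and RUNX1T1 between -1.50 and -1.17, while GFI1B runs from 3.81 to 5.25.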

How the data were processed

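Raw counts per gene symbol were deposited by the authors for 6 libraries; HISAT2, featureCounts and DESeq2 on hg38 are named, per the submitters' processing notes, and versions, annotation and strand setting are not given in the sources used here. Counts were read as deposited (0 columns unused). In R 4.3.3 with edgeR 4.0.16, genes kept by filterByExpr (13780 of 29436) were scaled by TMM and tested by the quasi-likelihood F test, lipoic acid minus untreated, with Benjamini-Hochberg adjustment over all tested genes. The procedure was tested on simulated data. CPM use TMM-scaled library sizes, standard errors come from the F statistic, and CPM per kb use union exon lengths from GENCODE v29, which held 29248 of the symbols (99.36%). Alternatives included limma 3.58.1 and DESeq2 1.42.0. Members and lists were chosen with earlier results of these data known. All 9 members are named, up to 4 called genes with the lowest p per list, and the 3 nearest genes per called member (prior count 2). CBFA2T3, KDM1A, CEBPB, ETS1, TAL1, FLI1, GATA2, LDB1, KDR, TEK, SOX7, PF4, ITGB3, GYPB, HBZ, EPOR and genes at 0 lie outside this rule and were chosen after their values were seen. Some genes that the rule names are not reported here. PCR duplicates cannot be counted without molecular barcodes.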

Additional observations from a re-analysis of the deposited data

How the results depend on the processing

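With 20 other settings, RUNX1, MYB and GFI1B kept their direction and their call in each; RUNX1T1 did so in 19, all but a test against a 2-fold threshold (adjusted p = 0.132). GFI1 kept its call in 17 and CBFB in 13. RUNX2 was not called in any of the 19 settings that tested it, and RUNX3 was called lower in 1, limma voom. No result reversed. The test against a 2-fold threshold left 2 members higher and 1 lower, and 489 genes higher and 274 lower over all genes, against 3329 and 3205 as reported. Leaving out each library in turn gave 2 to 4 members higher and 2 lower, and 2669 to 3569 genes higher and 2386 to 3448 lower over all genes. After correction for GC content and length, 41.2% of calls over all genes were rises, against 50.9%. Of 916 values of the 46 other named genes under these settings, 850 kept their direction and side of the threshold and 66 lost a call. Of 320 list counts, 278 stayed within 1.5 times the reported count.

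Libraries with the same replicate number correlated at 0.0598, 0.0602 and 0.0783 in their deviations from group means, below 0.1, although every library correlated best with its own number, a hint from the data only. With the replicate number as a block, 4 members were higher and 2 lower, and 3354 genes rose and 3203 fell over all genes. Depth limits SPI1 and the untreated level of GFI1B.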
